A study of Mus musculus with 2 samples.

Results

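Tgfb1, Tgfb2, Tgfb3, Tgfbr1, Tgfbr2, Tgfbi, Smad7, Ccn1 and Ccn2 are genes of transforming growth factor beta (TGF-beta) signalling and of the response to the coactivator YAP. They were chosen by symbol, and all 9 were found once each among the 32285 genes of the deposited matrices. Their transcripts were followed in dorsal skin of mice on postnatal day 3, in single-cell libraries of 2 genotypes, Wildtype (1 library, the control) and miR-200b induced (1 library). Dox is given as the treatment of both. Nothing in the labels tells which construct was used, which promoter or cell type drives it or how many animals stand behind a library, and the mature microRNA has no poly(A) tail and was not measured by this assay. Epidermis and dermis were dissociated apart and mixed 30:70 before droplet capture of 3′ RNA ends. There was 1 library per group and therefore no replicate, so every difference below compares these libraries, and every interval covers counting error only.

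TGF-beta ligands are secreted in a latent form, held in the matrix by latent TGF-beta binding proteins, and released by integrins and proteases. The released ligand binds the type II receptor Tgfbr2, which recruits and phosphorylates the type I receptor Tgfbr1. Smad transcription factors then carry the signal to target genes such as Tgfbi and to Smad7, which feeds back on the receptor. In skin the pathway restrains keratinocyte proliferation, takes part in the hair cycle and drives matrix production in fibroblasts. YAP and TAZ bind TEAD factors when the Hippo kinases are inactive, and Ccn1 and Ccn2, which encode matricellular proteins, are classical targets of that complex. Both are also known as immediate early genes that respond quickly to serum or stretch.

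The microRNA sequences are shown because the induced library is named for one of them, with the seed, bases 2 to 8, in capitals. Coordinates are those of RefSeq on GRCm38.p6, minus strand. The microRNA named by the genotype lies at chr4:156055685-156055706, and the family member with the other seed lies at chr4:156054911-156054932.
miR-200b-3p: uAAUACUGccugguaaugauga
miR-200a-3p: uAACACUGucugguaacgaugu
The 7-base match to the miR-200b seed, CAGTATT, was found in the annotated 3′ UTR of Smad7 only, once, among the 9 genes. It occurred in 13.3% of 20870 genes with a 3′ UTR in GENCODE vM21 on GRCm38. The match to the miR-200a seed, CAGTGTT, occurred in 17.2% of those genes and was found in Tgfb2 at 2 positions, in Tgfbr1 and in Tgfbr2. Windows of 30 bases around these exonic matches are shown with the match in capitals, since both receptor genes figure in the results. They lie at chr1:186625325-186625354 and chr1:186624045-186624074 (Tgfb2, minus strand), chr4:47411815-47411844 (Tgfbr1, plus strand) and chr9:116087740-116087769 (Tgfbr2, minus strand).
Tgfb2, first match: gttttgattcatCAGTGTTtaaaaaaaaaa
Tgfb2, second match: gtttgagctccaCAGTGTTtcagccttttc
Tgfbr1: atttgatcaaagCAGTGTTttgttttgttt
Tgfbr2: tttcaatctatgCAGTGTTtgtcttttata
A match is a description of the sequence, and longer 3′ UTRs hold more matches. The 3′ UTR of Tgfbr2 was 6085 bases and that of Tgfbr1 4154 bases, compared with a median of 966 bases over all genes.

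Filtering left 4816 control and 4890 induced cells. Their median depths were 14645 and 17794 UMIs (unique molecular identifiers, each a counted RNA molecule), and 7 barcode sequences were shared by kept cells of both libraries. Cell classes were rebuilt from marker genes, so "-like" is meant with every class name. The epithelial cells numbered 3955 and 4102 and the fibroblast-like cells 567 and 307 in the control and induced library. Of the 24 epithelial clusters, 17 held over 95% cells of a single library, and of the 9 other clusters 0 did. The basal epidermal-like class therefore compares control clusters E5 and E11 with induced clusters E0 and E17, the spinous-like class E13 and E15 with E8, and the outer root sheath-like class mainly E1, E6 and E22 with E2. The induced cluster E7, led by cell cycle genes as E11 is, had no name and lies outside these classes. The same holds for the induced clusters E3 and E9. Summed epithelial markers were 40561 and 43119 CPM in epithelial cells and 799 and 1760 CPM in fibroblast-like cells. Levels are CPM, the UMIs of a gene scaled to equal UMI totals per class and library, with exact Poisson 95% intervals, and levels are compared within a gene only.

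A gene was said to rise or fall when the log2 ratio of CPM plus 5, induced over control, reached 1 or -1 and its mean over both libraries was at least 10 CPM. In all epithelial cells 1 of 9 members fell (Tgfb3) and 0 rose, where 3.94% of all tested genes fell and 2.22% rose. In fibroblast-like cells 3 of 9 rose (Tgfbr2, Ccn1 and Ccn2) and 0 fell, where 4.9% of tested genes rose and 2.7% fell. Over all epithelial cells 3 other members were just short of the threshold, Tgfbr2 at 0.95, Ccn1 at -0.95 and Ccn2 at -0.93, and the count past 2-fold became 3 with 1 CPM added.

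Among the epithelial classes the calls were as follows. Of 7 members tested in basal epidermal-like cells, Tgfbr2 rose (2.22% of tested genes rose) and Ccn1 fell (6.2% fell). Of 4 tested in spinous-like cells, Tgfbi fell (4.68%) and 0 rose (2.74%). Of 9 tested in outer root sheath-like cells, Tgfb3 fell (4.36%) and 0 rose (2.96%). Members without a call could still be lower, as Ccn1 was in spinous-like cells at -0.88, past 2-fold under 4 of 10 alternatives, and no difference between classes was tested. Of 7 tested in upper follicle-like cells, Ccn2 rose (3.07%) and 0 fell (2.58%). That class is the single cluster E14, whose leading genes hold the upper follicle markers Cst6, Klk10 and Krt79 but also Pinlyp and Krt75 of the companion layer list, and at resolution 0.5 a cluster with mostly these leading genes was named companion layer, so the name is uncertain. Of 6 tested in hair matrix-like cells, Smad7 and Ccn1 rose (5.35%) and Tgfb2 fell (4.6%). The direction of Ccn1 in hair matrix-like cells was opposite to that in basal epidermal-like cells, but not with doublets kept, where the hair matrix-like log2 ratio with 5 CPM added was -0.040.

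The smaller classes outside the epithelium gave fewer UMIs than fibroblast-like cells, and the shares of all tested genes called in them ran from 2.4% to 13.5%. Of 8 members tested in dermal papilla-like cells, Tgfb1, Smad7 and Ccn1 rose (12.8% of tested genes rose) and 0 fell (13.5%). Of 8 tested in mural-like cells, the cells that wrap small vessels, Tgfb3, Ccn1 and Ccn2 rose (10.5%) and 0 fell (13.5%). Ccn1 was the member that rose in all 3 of the fibroblast-like, dermal papilla-like and mural-like classes. Of 8 tested in endothelial-like cells, Tgfbi rose (5.18%) and Ccn1 fell (8.21%). Of 7 tested in melanocyte-like cells, Tgfb1 rose (2.4%) and 0 fell (2.67%). The median log2 ratio of the tested members was 0.80 in mural-like cells, where the median over all tested genes was -0.071, and -0.26 in all epithelial cells, where it was -0.095. The median over all tested genes passed 0.1 in size in the spinous-like and upper follicle-like classes, at -0.11 in each, and relative to it the log2 ratio was -1.85 for Tgfbi in the former and 1.76 for Ccn2 in the latter.

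**Figure D1:**
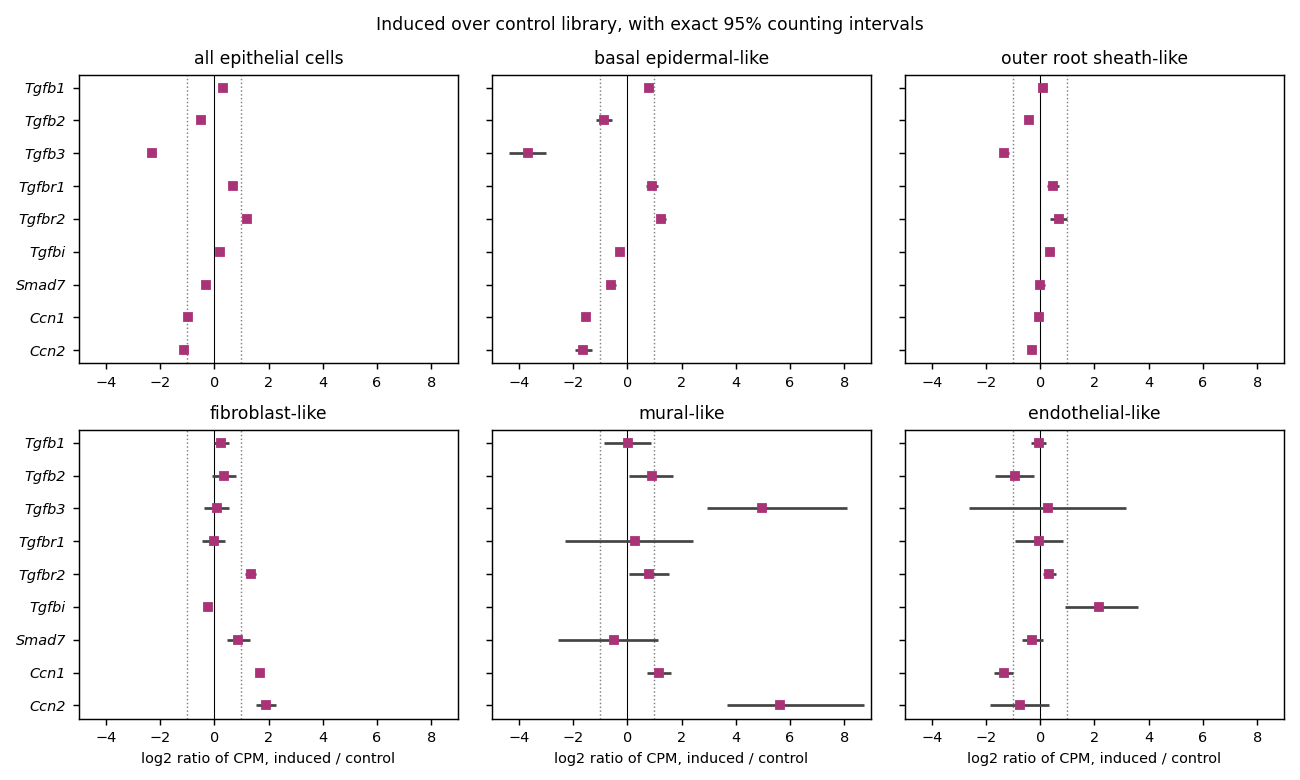
Log2 ratio of CPM, induced over control, of the 9 genes (vertical axis) in 6 classes, with exact 95% counting intervals as bars and dotted lines at 2-fold. Tgfb3 lies at -2.29 in all epithelial cells and 4.96 in mural-like cells, and Ccn1 and Ccn2 lie at 1.70 and 1.91 in fibroblast-like cells.

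Tgfb1 (ENSMUSG00000002603, chr7:25687002-25705077, plus strand) encodes the best-known ligand. It was highest in endothelial-like cells in both libraries, at 213 CPM (187 to 243) in the control and 205 CPM (176 to 237) in the induced library. Hair matrix-like cells came next at 122 and 101 CPM, and spinous-like cells were lowest at 5.75 and 4.0 CPM. Of the 9 pairs of neighbours in this order of classes, 5 in the control and 6 in the induced library had overlapping intervals. Over all clusters the highest level was in N25, an unnamed cluster of 30 control and 26 induced cells led by Cd74 and H2-Aa, at 288 and 240.5 CPM. Tgfb1 rose in melanocyte-like cells from 11.8 to 30.7 CPM (log2 ratio 1.38, 0.48 to 2.42), short of 2-fold (0.68) with 20 CPM added. In dermal papilla-like cells it had 31.4 and 67.9 CPM, and the interval of the ratio (-0.24 to 2.57) held 0, so the rise there was within counting error. In basal epidermal-like cells it had 41.7 and 73.3 CPM, a log2 ratio of 0.74 on the scale with 5 CPM added, which stayed under 2-fold.

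Tgfb2 (ENSMUSG00000039239, chr1:186622792-186705989, minus strand), a ligand known in the hair follicle, was highest in outer root sheath-like cells in both libraries. Its level there was 155 CPM (150.0 to 161) in the control and 116 CPM (111 to 123) in the induced one, and the log2 ratio of -0.42 stayed under 2-fold. Within the class it was highest in cluster E23, with 75 control and 20 induced cells, where Tgfb2 had 798 and 934 CPM. The other outer root sheath-like clusters held 83.6 to 191 CPM in the control library, and the induced cluster E2 had 102 CPM. The unnamed induced cluster E3, led by Pthlh, Fst and Tgfb2, had 189 CPM (180 to 198). With library-centred clustering a cluster led by these genes was named outer root sheath. In hair matrix-like cells Tgfb2 fell from 128 CPM (113 to 145) to 35.1 CPM (24.7 to 48.4), a log2 ratio of -1.87 (-2.41 to -1.37). The intervals of both libraries did not overlap in that class, which was a single cluster of 69 and 53 cells. With doublets kept the log2 ratio with 5 CPM added was -0.79, short of 2-fold, in place of -1.73. A 2-fold difference was not reached in mural-like cells (50.3 and 93.7 CPM) or endothelial-like cells (54.3 and 28.3 CPM). Of the 9 neighbour pairs in the order of classes, 6 in the control and 8 in the induced library overlapped.

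Tgfb3 (ENSMUSG00000021253, chr12:86056745-86079041, minus strand), the remaining ligand, showed the steepest fall of the 9 genes over all epithelial cells. It had 2487 UMIs and 32.3 CPM (31.1 to 33.6) in the control library and 648 UMIs and 6.62 CPM (6.12 to 7.14) in the induced one, and the log2 ratio was -2.29 (-2.42 to -2.16). The mix of classes moved with it, since outer root sheath-like cells, which held 1503 of the control UMIs, made up 27.9% of kept control and 14.8% of kept induced cells. Within that class the log2 ratio was -1.33 (-1.50 to -1.16). The unnamed cluster E10, with 313 control and 8 induced cells, held 262 of the control UMIs. Sebaceous gland-like cluster E16, with 177 and 3 cells, held 128. The part of the mix in the value over all epithelial cells was not tested. After thinning every cell to 2000 UMIs, 7.55% (6.74 to 8.42) of 3909 control and 1.96% (1.54 to 2.45) of 3835 induced epithelial cells held a Tgfb3 UMI, and without thinning the shares were 32.3% and 10.8%. Melanocyte-like cells, where the gene had 2 UMIs and 1 UMI in all, gave thinned shares of 2.47% (0.30 to 8.64) of 81 and 0.43% (0.011 to 2.35) of 235 cells. In each library the share over all epithelial cells thus lay within the counting interval of the melanocyte-like share, which is wide because it rests on these few UMIs. The outer root sheath-like shares, 13.6% (11.8 to 15.5) and 7.02% (5.26 to 9.15), lay above that interval. By level, melanocyte-like cells had 1.96 CPM (0.24 to 7.09) and 0.51 CPM (0.013 to 2.86). These intervals lay below those of all epithelial cells. Median depths were 16096 and 21087 UMIs in epithelial cells and 10160 and 7523 UMIs in melanocyte-like cells.

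Among the epithelial classes with a mean high enough for the test, Tgfb3 passed 2-fold in the outer root sheath-like class, and there not in cluster E23. In outer root sheath-like cells Tgfb3 fell from 74.8 CPM (71.0 to 78.7) to 29.8 CPM (26.8 to 33.0). Within that class the control clusters E1, E6 and E22 held 64.1 to 72.8 CPM and the induced cluster E2 held 25.04 CPM (22.3 to 28.1). In E23, the outer root sheath-like cluster in which Tgfb3 was highest in both libraries, the levels were 239.8 CPM (205 to 279) and 290.4 CPM (219 to 377), and the intervals overlapped. In basal epidermal-like cells Tgfb3 had 159 and 22 UMIs, 10.2 and 0.81 CPM, and in spinous-like cells 24 UMIs and 1 UMI, with means too low for the test. Of the 159 basal epidermal-like control UMIs, 149 came from cluster E11 (21.5 CPM), which is led by the cell cycle genes Ube2c, Top2a and Cenpf. The name of E11 is uncertain, since it had 3 markers raised, the minimum. With doublets kept, a mostly control cluster led by these genes was unnamed. The unnamed induced cluster E7, also led by cell cycle genes, had 11.1 CPM (9.18 to 13.2). The control cluster E5 had 1.17 CPM (0.56 to 2.15), which overlapped the induced cluster E0 at 0.78 CPM (0.46 to 1.23). Upper follicle-like cells had 16.1 and 6.13 CPM, which stayed under 2-fold with 5 CPM added.

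Fibroblast-like cells had Tgfb3 at 27.2 CPM (23.0 to 32.0) and 29.1 CPM (22.2 to 37.4), with overlapping intervals. In mural-like cells Tgfb3 rose from 2 UMIs in 52 cells (2.87 CPM, 0.35 to 10.4) to 22 UMIs in 46 cells (89.7 CPM, 56.2 to 136), a log2 ratio of 4.96 (2.94 to 8.10). Mural-like cells thereby moved from the 7th to the 1st place in the order of classes, although 7 of 9 neighbour pairs in the control and 8 of 9 in the induced library overlapped. Mural-like cells had median depths of 12421 and 5282 UMIs, their summed epithelial markers were 638 and 2254 CPM, and the part of these in the rise was not tested.

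**Figure D2:**
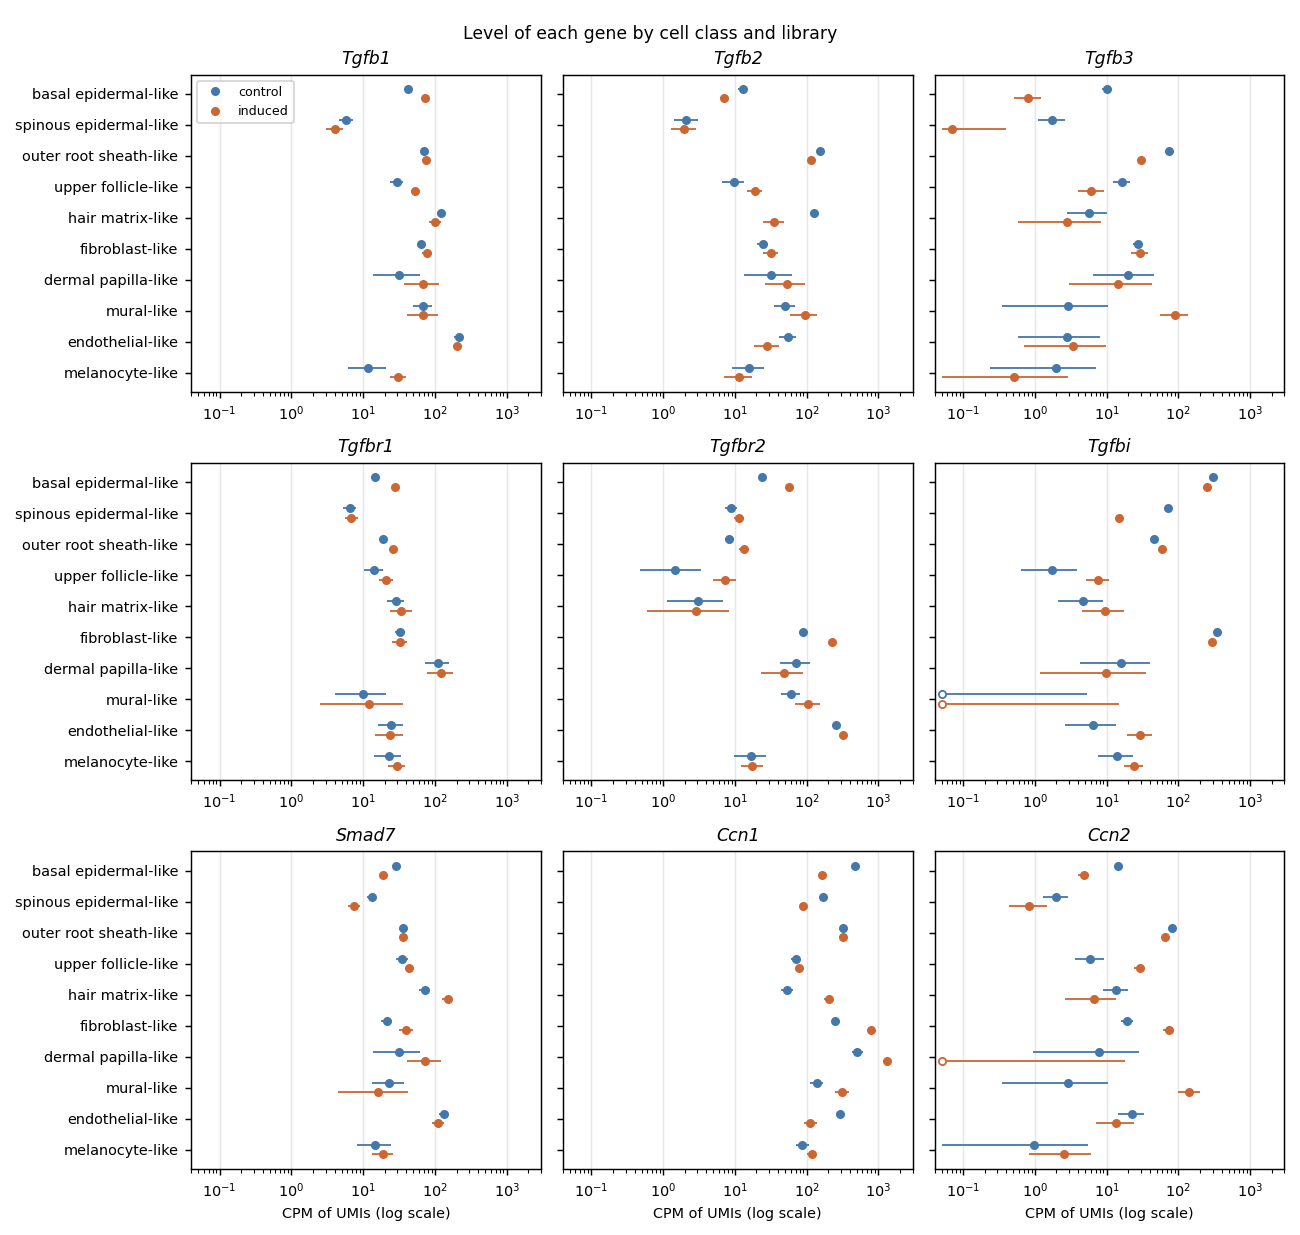
Level of each of the 9 genes in 10 classes (vertical axis), as CPM on a log axis, with the control library in blue and the induced library in orange. Bars are exact Poisson 95% intervals, ended at the left where a lower bound lies beyond the axis, and open circles mark 0 UMIs. Tgfb3 in mural-like cells (2.87 and 89.7 CPM) and Ccn1 in fibroblast-like cells (246 and 800.0 CPM) show wide gaps, while Tgfbr1 overlaps in most dermal classes.

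Tgfbr1 (ENSMUSG00000007613, chr4:47353222-47414931, plus strand), the type I receptor, reached 2-fold in none of the 10 classes. It was highest in dermal papilla-like cells in both libraries, at 110.0 CPM (73.1 to 159) and 121 CPM (78.5 to 179). Fibroblast-like cells had 32.7 and 32.5 CPM, and the interval of their log2 ratio ran from -0.44 to 0.40. In basal epidermal-like cells Tgfbr1 had 14.9 CPM (13.0 to 16.9) and 28.2 CPM (26.2 to 30.2), a log2 ratio of 0.92 (0.71 to 1.14) that was 0.74 with 5 CPM added. The intervals of both libraries were apart in that class while the difference stayed under the threshold.

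Tgfbr2 (ENSMUSG00000032440, chr9:116084293-116175360, minus strand), the type II receptor, was higher in the induced library in basal epidermal-like and fibroblast-like cells. In fibroblast-like cells it rose from 89.4 CPM (81.6 to 97.7, from 486 UMIs) to 226 CPM (206 to 247, from 466 UMIs in fewer cells), a log2 ratio of 1.34 (1.15 to 1.52). Within the class it had 78.2 and 142 CPM in cluster N7 and 106 and 213 CPM in cluster N9, so both clusters with many cells of each library were higher in the induced one. Cluster N24, with 6 control and 73 induced cells, had 305 CPM in the induced library. The adipocyte lineage markers summed to 207 CPM in control and 3075 CPM in induced fibroblast-like cells, with Adipoq, Cidec, Retn and Car3 at 0 in the control, and their part in the rise was not tested. Without N24, in the clusters with at least 20 cells of each library, the log2 ratio of Tgfbr2 was 1.05 with 5 CPM added.

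Among epithelial cells, basal epidermal-like cells showed a rise of Tgfbr2 from 24.1 CPM (21.7 to 26.7) to 57.6 CPM (54.8 to 60.6), a log2 ratio of 1.26 (1.09 to 1.42). With 5 CPM added it was 1.11, and 6 of 10 alternatives, with values from 0.82 to 1.24, were past 2-fold. Control clusters E5 and E11 had 25.7 and 21.5 CPM and induced clusters E0 and E17 had 57.6 and 60.3 CPM, so the clusters of a library were alike and those of different libraries apart. After thinning, 5.70% (4.16 to 7.61) of 754 control and 11.2% (9.41 to 13.2) of 1126 induced basal epidermal-like cells held a Tgfbr2 UMI, compared with 35.1% and 64.8% without thinning. Melanocyte-like cells gave 3.70% (0.77 to 10.4) and 3.40% (1.48 to 6.60) after thinning. The control share of basal epidermal-like cells thus lay within the interval of the melanocyte-like share and the induced share above the induced one. Over all epithelial cells the gene had 13.0 and 30.0 CPM, a log2 ratio of 1.20 (1.10 to 1.31) that was 0.95 with 5 CPM added and so just short of 2-fold.

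Endothelial-like cells held the highest level of Tgfbr2 in both libraries, at 259 CPM (229.7 to 292) and 326 CPM (289 to 366). Hair matrix-like and upper follicle-like cells were at the low end, with 3.1 and 1.47 CPM in the control and 2.85 and 7.36 CPM in the induced library. Of the 9 neighbour pairs 6 overlapped in each library. For Tgfbr1 the count was 7 in the control and 8 in the induced library.

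Smad7 (ENSMUSG00000025880) encodes the inhibitory Smad that targets the receptor and is itself induced by the pathway. It is the member with a miR-200b seed match, and its level over all epithelial cells was 27.2 CPM (26.1 to 28.4) in the control and 21.96 CPM (21.0 to 22.9) in the induced library. The log2 ratio of -0.31 (-0.40 to -0.22) was apart from 0 by counting error and under 2-fold. In the epithelial clusters that held at least 20 cells of each library the log2 ratio with 5 CPM added was 0.50, compared with -0.26 over all epithelial cells. These clusters, E14, E18, E21 and E23, held 315 control and 274 induced cells. None was basal epidermal-like or spinous-like, so they cannot stand for the whole epithelium. In outer root sheath-like cells the levels were 36.5 and 36.5 CPM, and the interval of the log2 ratio was -0.17 to 0.17. In hair matrix-like cells Smad7 rose from 71.9 CPM (60.5 to 84.9) to 149.9 CPM (127 to 175), a log2 ratio of 1.06 (0.72 to 1.40) that was short of 2-fold (0.89) with 20 CPM added. In dermal papilla-like cells it had 31.4 and 72.7 CPM, and the interval of the ratio (-0.12 to 2.66) held 0. Smad7 was highest in endothelial-like cells in the control library (136 CPM) and in hair matrix-like cells in the induced library, and 7 and 8 of the 9 neighbour pairs overlapped.

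Tgfbi (ENSMUSG00000035493, chr13:56609523-56639562, plus strand) encodes a secreted matrix protein induced by TGF-beta. Fibroblast-like cells were highest of the named classes in both libraries, at 347 CPM (331 to 363) and 294 CPM (271 to 318), followed by basal epidermal-like cells at 302 and 249.7 CPM. In mural-like cells Tgfbi had 0 UMIs in both libraries, which allows 4.31 CPM in the control and 12.2 CPM in the induced library at the limit of 3 counts. The gene thus separated fibroblast-like from mural-like cells in both libraries. In spinous-like cells Tgfbi fell from 72.7 CPM (68.2 to 77.3) to 14.9 CPM (13.0 to 17.1), a log2 ratio of -2.28 (-2.50 to -2.07). Control cluster E13 had 137 CPM (128 to 146), control cluster E15 11.8 CPM (9.39 to 14.6) and the induced cluster E8 15.1 CPM (13.2 to 17.3). The high control level was thus that of E13, while the intervals of E15 and E8 overlapped. The induced cluster E9 was unnamed and so outside the class. It shares the leading genes Krt16 and Clca3a2 with E13 and had 135 CPM (128 to 143). The name of E15 is uncertain too, since under the stricter cell filter a mostly control cluster also led by Krt77 and Defb6 was named upper follicle. At a coarser clustering, Leiden resolution 0.5, the log2 ratio of the class with 5 CPM added was -0.73 in place of -1.96. In endothelial-like cells Tgfbi rose from 7 UMIs (6.55 CPM, 2.64 to 13.5) to 26 UMIs (29.4 CPM, 19.2 to 43.1), and with doublets kept the log2 ratio with 5 CPM added was 0.22 in place of 1.57. The unnamed cluster N25 had the highest Tgfbi level of all clusters in the induced library, at 606 CPM, with 278 CPM in the control. Of the 9 neighbour pairs 5 overlapped in each library.

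Ccn1 (ENSMUSG00000028195, chr3:145646976-145649981, minus strand), the matricellular target of YAP also called Cyr61, fell in basal epidermal-like and endothelial-like cells and rose in hair matrix-like, fibroblast-like, dermal papilla-like and mural-like cells. Its RefSeq promoter on GRCm38.p6, chr3:145649936-145650235 on the minus strand, is shown because Ccn1 moved in 6 classes and because, of the 6 members with a promoter in the table, it was the one with the TEAD motif CATTCC, which is in capitals. Promoters of Ccn2, Tgfb3 and Smad7 were not analysed here.
Ccn1 promoter: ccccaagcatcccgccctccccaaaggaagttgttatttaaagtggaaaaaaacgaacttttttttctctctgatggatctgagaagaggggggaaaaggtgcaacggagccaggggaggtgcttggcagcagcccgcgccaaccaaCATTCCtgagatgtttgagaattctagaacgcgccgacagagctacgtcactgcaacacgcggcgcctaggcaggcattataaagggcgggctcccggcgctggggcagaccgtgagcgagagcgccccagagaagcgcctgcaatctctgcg
The motif starts at position -103 from the RefSeq start. It was searched on both strands and occurred in 14.7% of 32851 promoters of 300 bases. The AP-1 motif TGANTCA (7.81% of promoters), the CRE motif TGACGTCA (1.79%) and the Smad palindrome GTCTAGAC (0.21%) were not found in this window. Promoters of Tgfb1, Tgfb2, Tgfbr1, Tgfbr2 and Tgfbi in the table held none of these 4 motifs.

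In basal epidermal-like cells Ccn1 fell from 7365 UMIs and 474 CPM (463 to 485) to 4490 UMIs and 166 CPM (161 to 171), a log2 ratio of -1.51 (-1.57 to -1.46). Control clusters E5 and E11 had 472 and 478 CPM, and induced clusters E0 and E17 had 146 and 288 CPM. Each control cluster of the class was thus above each induced one, at median depths of 20102 and 23927 UMIs over the class. After thinning, 45.2% (41.6 to 48.9) of control and 22.2% (19.8 to 24.7) of induced basal epidermal-like cells held a Ccn1 UMI, compared with 82.4% and 70.0% without thinning. No class lacked Ccn1, and the thinned shares of upper follicle-like cells, among the lowest, were 7.89% (2.95 to 16.4) and 8.09% (4.11 to 14.0). Over all epithelial cells Ccn1 had 326 and 166 CPM, a log2 ratio of -0.97 (-0.999 to -0.942) that was just short of 2-fold. In outer root sheath-like cells it had 326 CPM (318 to 334) and 319 CPM (309 to 329), with overlapping intervals. The epithelial clusters that held at least 20 cells of each library were E14, E18, E21 and E23. Their log2 ratio with 5 CPM added was 0.50. They held 315 control and 274 induced cells and no basal epidermal-like cluster, so they cannot show the fall of that class.

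In fibroblast-like cells Ccn1 rose from 1335 UMIs and 246 CPM (233 to 259) to 1651 UMIs and 800.0 CPM (762 to 840), a log2 ratio of 1.70 (1.60 to 1.81). It was higher in the induced library in cluster N7 (210.2 and 403 CPM) and in cluster N9 (312 and 948 CPM). After thinning, 22.2% (18.9 to 25.9) of 562 control and 46.7% (40.7 to 52.8) of 276 induced fibroblast-like cells held a Ccn1 UMI, compared with 37.6% and 61.2% without thinning. Both the level and the share of cells were thus higher, at median depths of 9194 and 6418 UMIs. In dermal papilla-like cells Ccn1 rose from 510.5 CPM (427 to 606) to 1324 CPM (1172 to 1491), in mural-like cells from 139 to 314 CPM and in hair matrix-like cells from 53.8 to 203 CPM. In endothelial-like cells it fell from 287 CPM (256 to 321) to 113 CPM (92.0 to 138). With doublets kept the hair matrix-like log2 ratio with 5 CPM added was -0.040 in place of 1.82, but the class was also redrawn, to 223 control and 63 induced cells in place of 69 and 53, and the cause was not tested. The dermal papilla-like and mural-like values were then 0.92 and 0.84, short of 2-fold. The dermal papilla-like class had median depths of 6183 and 1765 UMIs per cell. Of the 9 neighbour pairs in the order of classes, 6 overlapped in the control and 4 in the induced library.

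Ccn2 (ENSMUSG00000019997, chr10:24595442-24598683, plus strand), also called CTGF, was highest in outer root sheath-like cells in the control library (80.3 CPM, 76.4 to 84.3), where it had 65.04 CPM (60.6 to 69.7) in the induced library. Cluster E23 had the highest level of all clusters in both libraries, at 219 and 207 CPM, as it had for Tgfb2 and Tgfb3. In fibroblast-like cells Ccn2 rose from 106 UMIs and 19.5 CPM (16.0 to 23.6) to 151 UMIs and 73.2 CPM (62.0 to 85.8), a log2 ratio of 1.91 (1.54 to 2.28). In cluster N7 it had 14.1 and 68.9 CPM and in cluster N9 29.8 and 90.3 CPM. The direction was the same in both of these clusters. Thinned shares of fibroblast-like cells with a Ccn2 UMI were 3.02% (1.77 to 4.80) and 7.61% (4.77 to 11.4), with intervals that just overlapped. In mural-like cells Ccn2 rose from 2 UMIs (2.87 CPM, 0.35 to 10.4) to 35 UMIs (143 CPM, 99.4 to 198), a log2 ratio of 5.63 (3.67 to 8.74). Thinned shares there were 1.92% (0.049 to 10.3) of 52 and 8.89% (2.48 to 21.2) of 45 cells, with overlapping intervals. The differences in depth and in epithelial markers given for Tgfb3 in this class apply here too, and their part was not tested. In upper follicle-like cells Ccn2 rose from 20 UMIs and 5.86 CPM (3.58 to 9.05) to 118 UMIs and 28.9 CPM (24.0 to 34.7), a difference that was short of 2-fold with doublets kept (log2 ratio with 5 CPM added 0.89), at Leiden resolution 2.0 (0.88) and with 20 CPM added (0.92). The share of upper follicle-like cells with a Ccn2 UMI was 14.3% of 77 control and 11.3% of 141 induced cells, at median depths of 34732 and 15377 UMIs, and no order was read from it. After thinning to 2000 UMIs it was 0% of 76 cells (0 to 4.74%) and 2.21% of 136 cells (0.46 to 6.31%). Over all epithelial cells Ccn2 had 34.7 CPM (33.4 to 36.0) and 15.9 CPM (15.1 to 16.7), a log2 ratio of -1.13 that was -0.93 with 5 CPM added, while within outer root sheath-like cells it was -0.30 (-0.43 to -0.18). In the epithelial clusters of both libraries, E14, E18, E21 and E23, the log2 ratio with 5 CPM added was -0.051. In basal epidermal-like cells it had 14.6 and 4.76 CPM, with a mean too low for the test. Of the 227 control UMIs there, 203 came from cluster E11 (29.3 CPM), and the other main control cluster, E5, had 2.81 CPM (1.80 to 4.18), below the induced cluster E0 at 5.45 CPM (4.54 to 6.49) and above the induced cluster E17 at 0.80 CPM (0.17 to 2.34). The lower level over the induced class thus rested on E11. The induced cluster E7, also led by cell cycle genes but unnamed and so outside the class, had 22.2 CPM (19.5 to 25.2). Ccn2 had 2 UMIs in control and 0 UMIs in induced dermal papilla-like cells, which gives no fold. Of the 9 neighbour pairs 8 overlapped in the control and 6 in the induced library.

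Ccn1 and Ccn2 moved beside a list of 15 immediate early and dissociation genes, among them Fos, Jun, Egr1 and Atf3. In fibroblast-like cells 15 of 15 rose, where 4.9% of all tested genes did, the summed list went from 3189 to 11916 CPM, and the largest rises were those of Zfp36, which destabilises mRNAs (43.6 to 344.5 CPM), and the nuclear receptor Nr4a1 (13.2 to 122 CPM). In basal epidermal-like cells, where Ccn1 fell, 8 of 15 fell (6.2% of all tested genes) and the sum went from 13992 to 7388 CPM. In mural-like cells 14 of 15 rose, where 10.5% of all tested genes did (4202 to 16678 CPM), and in dermal papilla-like cells 11 of 15 rose, where 12.8% did (8357 to 26264 CPM). The list and Ccn1 thus had the same direction in these 4 classes. In endothelial-like cells 4 of 15 rose, where 5.18% of all tested genes did, and the sum went from 8231 to 13816 CPM while Ccn1 fell. In hair matrix-like cells, where Ccn1 rose, 2 of 15 rose (5.35% of all tested genes), 2 fell (4.6%), the median log2 ratio of the list was -0.25 and the sum went from 6716 to 7542 CPM. In upper follicle-like cells, where Ccn2 rose, 1 of 15 rose (3.07%), 0 fell and the sum went from 7552 to 8766 CPM. The part of these genes in the Ccn1 and Ccn2 differences was not tested. Before filtering, 823 of 9072 control and 1678 of 9114 induced barcodes had at least 15% mitochondrial UMIs. The part of cell quality was not tested. Over clusters with at least 20 cells of a library, Pearson's r between the log2 levels of Ccn1 and of the summed list was 0.87 over 15 control and 0.36 over 13 induced epithelial clusters, and -0.049 over 8 control and 0.65 over 8 induced other clusters. For Ccn2 the values were 0.49, -0.32, -0.090 and 0.069. These are descriptions, since clusters of a library share its preparation and depth.

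**Figure D3:**
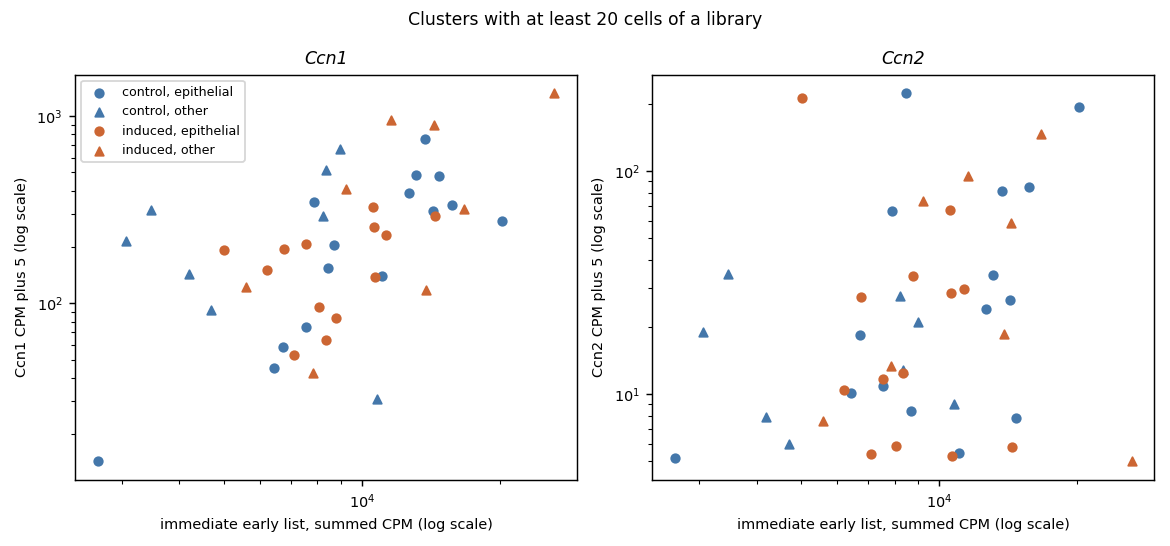
Level of Ccn1 (left) and Ccn2 (right), as CPM plus 5 on a log axis, against the summed CPM of the 15 immediate early genes on a log axis, 1 point per cluster with at least 20 cells of a library. Circles are epithelial and triangles other clusters, blue the control and orange the induced library, and the induced dermal papilla-like cluster stands at 26264 CPM with 1324 CPM of Ccn1 and 0 UMIs of Ccn2.

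Between tissue layers, 2 of 9 members were at least 2-fold higher in fibroblast-like than in all epithelial cells of both libraries, where 13.1% of tested genes were, and 0 were lower, where 8.73% were. They were Tgfbr2, with log2 ratios of CPM plus 5 of 2.39 in the control and 2.72 in the induced library, and Tgfbi, with 1.70 and 1.27. For Ccn1 the ratio was -0.40 in the control and 2.23 in the induced library. For Ccn2 it was -0.70 and 1.91, and for Tgfb3 -0.21 and 1.55. The ratio of each of these 3 genes was thus below 0 in the control and past 2-fold upward in the induced library. Tgfb2 had -1.13 and -0.39, Smad7 -0.29 and 0.71, Tgfb1 0.61 and 0.57, and Tgfbr1 1.05 and 0.52.

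The wider pathway was read from lists of genes taken by their role. The list of 9 TGF-beta target genes had 7 tested in fibroblast-like cells, of which 4 rose (4.9% of all tested genes) and 0 fell, with a median log2 ratio of 1.55 where the median over all tested genes was 0.00045. Acta2, the smooth muscle actin of contractile fibroblasts, rose from 80.4 to 423 CPM, and Thbs1, a matrix glycoprotein that can activate latent TGF-beta, rose from 34.0 to 163 CPM. In the same class the summed markers of other cell types were 156 and 123 CPM for mural cells, 207 and 3075 CPM for the adipocyte lineage, 9.38 and 18.4 CPM for endothelium and 799 and 1760 CPM for epithelium, those of fibroblasts were 70434 and 38164 CPM, and their part in these rises was not tested. In all epithelial cells 0 of 5 tested target genes passed 2-fold, with a median of -0.52. By epithelial class, 2 of 3 fell in basal epidermal-like cells (6.2% of all tested genes) and 2 of 3 in spinous-like cells (4.68%), 0 of 5 moved in outer root sheath-like cells (median 0.29), 2 of 4 rose (3.07%) and 1 fell (2.58%) in upper follicle-like cells (median 0.65), and 1 of 6 rose (5.35%) and 2 fell (4.6%) in hair matrix-like cells. In mural-like cells 4 of 7 rose (10.5%) and 1 fell (13.5%), in endothelial-like cells 2 of 5 rose (5.18%) and 1 fell (8.21%), and in dermal papilla-like cells 1 of 3 rose (12.8%).

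Of the lists upstream of the target genes, in fibroblast-like cells the co-receptor Tgfbr3 rose from 109 to 246 CPM, 1 of 3 tested receptors and co-receptors, and the Smad repressor Skil rose from 17.3 to 52.8 CPM, 1 of 6 tested inhibitors, where 4.9% of all tested genes rose. Of the latent complex list, 0 of 5 moved there, and of the Smad transducers 0 of 4. In all epithelial cells Ltbp1, a latent TGF-beta binding protein, fell from 32.5 to 13.4 CPM, 1 of 6 tested genes of the latent complex where 3.94% of all tested genes fell, and the median of that list was -0.67. In the pooled epithelium 0 of 2 tested co-receptors, 0 of 3 Smad transducers and 0 of 6 inhibitors passed 2-fold, but single classes gave calls. Of the receptors and co-receptors, the 1 tested in outer root sheath-like cells fell (4.36% of all tested genes), and the 1 tested in upper follicle-like (3.07%) and in hair matrix-like cells (5.35%) rose. In dermal papilla-like cells 2 of 3 rose (12.8%), in mural-like cells 1 of 3 rose (10.5%), and in endothelial-like cells 1 of 4 rose (5.18%) and 1 fell (8.21%). Of the Smad transducers 1 of 4 fell in basal epidermal-like (6.2%) and 2 of 4 in dermal papilla-like cells (13.5%). Of the latent complex list 1 of 3 fell in basal epidermal-like cells (6.2%), and in endothelial-like cells 2 of 6 rose (5.18%) and 1 fell (8.21%). Of the inhibitors 1 of 5 rose in mural-like cells (10.5%). In the remaining named classes 0 tested genes of these 4 lists passed 2-fold.

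On the Hippo side the regulators stayed under 2-fold in all epithelial and in fibroblast-like cells. Of the tested kinase arm genes in the other classes, 1 of 9 fell in basal epidermal-like cells (6.2% of all tested genes), 1 of 9 rose and 1 fell in mural-like cells (10.5% and 13.5%), and 2 of 10 rose in melanocyte-like cells (2.4%). Of the YAP, TAZ and TEAD list, 1 of 6 fell in hair matrix-like cells (4.6%), and 1 of 6 rose and 1 fell in dermal papilla-like cells (12.8% and 13.5%). Of YAP, TAZ and the TEAD factors with Vgll4, 0 of 6 tested moved in all epithelial cells (median -0.29) and 0 of 6 in fibroblast-like cells (median 0.044). Of the Hippo kinase arm, 0 of 10 and 0 of 9 moved, with medians of 0.0051 and -0.011. The 18 other YAP and TAZ target genes gave 1 rise (2.22% of all tested genes) and 1 fall (3.94%) among 10 tested in the epithelium, where Myof, a membrane repair protein, rose from 7.12 to 19.4 CPM and Ptpn14, a phosphatase that binds YAP, fell from 62.6 to 27.6 CPM. In fibroblast-like cells 2 of 12 rose (4.9% of all tested genes), with a list median of 0.14. Igfbp3, which binds insulin-like growth factors, rose from 19.1 to 492 CPM, and the receptor tyrosine kinase Axl rose from 62.7 to 149 CPM. In mural-like cells, where Ccn1 and Ccn2 also rose, 3 of 11 rose (10.5%), and in dermal papilla-like cells 3 of 10 rose (12.8%) and the sum of the list went from 966 to 4175 CPM. Where Ccn1 fell, in basal epidermal-like cells, 3 of 11 fell (6.2%), with a list median of -0.71. Outer root sheath-like cells had 2 of 11 higher past 2-fold (2.96%), hair matrix-like cells 2 of 10 (5.35%) with 1 lower (4.6%), and endothelial-like cells 1 of 7 higher (5.18%). In spinous-like cells 1 of 7 fell (4.68%), in upper follicle-like cells 1 of 8 fell (2.58%), and in melanocyte-like cells 0 of 6 moved.

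**Figure D4:**
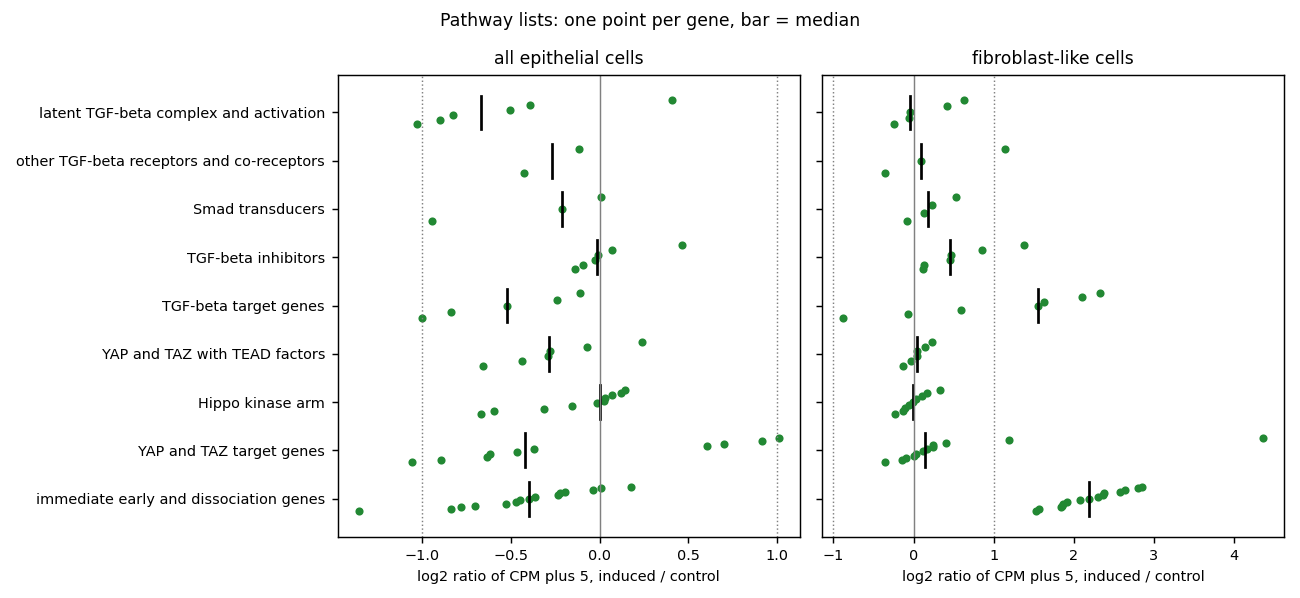
Log2 ratio of CPM plus 5, induced over control, of every tested gene of the 9 pathway lists (green points) with the list median (black bar), in all epithelial (left) and fibroblast-like cells (right), dotted lines marking 2-fold. The 15 immediate early genes lie above 1 in fibroblast-like cells (median 2.19), the TGF-beta target list has a median of 1.55 there, and the Hippo kinase arm centres near 0 in both panels.

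Likeness was measured as Pearson's r of log2 of CPM plus 5 over 20 points, the 10 classes in each library, among 7417 genes. Tgfb3 and Ccn2 were among each other's 3 most alike genes, with r of 0.78. Tgfbr2 was most like Lipa (0.93), Sparc (0.92) and Cavin1 (0.92), and Tgfbi was most like Ackr4 (0.89), Col8a1 (0.88) and Efemp1 (0.82). For Ccn1 the closest genes were Zfp362 (0.82), Dnmt3a and Igfbp4 (0.81 each), and for Ccn2 Mgp (0.81). Among the members, Tgfb1 and Smad7 had r of 0.79, Tgfb1 and Tgfb2 0.68, and Ccn1 and Ccn2 0.29. Ccn1 and Ccn2 thus had unlike patterns over the classes although both rose in fibroblast-like and mural-like cells. The remaining closest genes were Kitl for Tgfb1 (0.86), Chd1 for Tgfb2 (0.81), Steap4 for Tgfb3 (0.82), Dhx30 for Tgfbr1 (0.93) and Zfp664 for Smad7 (0.84). The points share libraries and depth, and these values are descriptions.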

How the data were processed

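Per the file headers the deposited matrices hold raw UMI counts per gene and barcode, and the submitters' processing notes name Cell Ranger 6.0.0 and mm10; the annotation is not given in the sources used here. Barcodes were kept with at least 1000 UMIs, 500 genes and under 15% mitochondrial UMIs. The Scrublet threshold marked 0.039% and 0.019% of barcodes, so the 7% with the highest scores per library were removed as doublets. Both libraries were clustered together without integration (scanpy 1.11.5, leidenalg 0.10.2, Python 3.11.15; 2000 variable genes, 30 components, 15 neighbours, resolution 1.0). Clusters above 3000 CPM of keratins were epithelial, and names came from 27 marker lists, in which Krt85 and the spelling Loricrin had no match in the files, while Lor, the same gene, had one. A name needed at least 3 markers raised 1.5-fold. Epithelial cells without a name made up 27.5% of the control and 38.2% of the induced epithelium.

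UMIs were summed per class and library as CPM, which weights deep cells more. Ratios have exact conditional binomial 95% intervals and shares Clopper-Pearson 95% intervals, after thinning to 2000 UMIs, which left out 55 control and 355 induced cells. With 1 library per group no test was possible. Scripts were checked on simulated data. Named genes are the 9 members, up to 2 rises and 2 falls per pathway list in epithelial and fibroblast-like cells, and the 3 genes most alike each member. Members, lists and naming thresholds were chosen with earlier results of these data known. The alternatives changed doublet removal, the cell filter, the clustering, the averaging, the total, the scaling and the CPM added.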

Additional observations from a re-analysis of the deposited data

Results flagged for a closer look

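Of the members, 3 passed 2-fold in opposite directions in different classes under the same comparison of libraries. Tgfb3 had a log2 ratio of CPM plus 5 of 3.59 in mural-like cells and -1.20 in outer root sheath-like cells. Tgfbi had 1.57 in endothelial-like cells and -1.96 in spinous-like cells. Ccn1 had 1.82 in hair matrix-like cells and -1.49 in basal epidermal-like cells. With 1 library per group the difference between classes was not tested. The mural-like value of Tgfb3 rests on 2 and 22 UMIs and the endothelial-like value of Tgfbi on 7 and 26 UMIs. With doublets kept, Ccn1 in hair matrix-like cells was at -0.040 and Tgfbi in endothelial-like cells at 0.22, and at Leiden resolution 0.5 Tgfbi in spinous-like cells was at -0.73. The induced spinous-like class left out the unnamed cluster E9, where Tgfbi had 135 CPM, beside 137 CPM in the control spinous-like cluster E13. Tgfb3 in outer root sheath-like cells was at 0.27 in clusters with at least 20 cells of each library.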

How the results depend on the processing

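No paired analysis was possible because each group had 1 library. Of 21 ratios past 2-fold, 19 kept their sign under every one of the 11 alternatives and 7 stayed past 2-fold under all that gave a value: Tgfbr2, Ccn1 and Ccn2 in fibroblast-like, Ccn1 in basal epidermal-like and endothelial-like, and Tgfb3 and Ccn2 in mural-like cells. Mural-like and endothelial-like classes held the same numbers of cells at resolutions 0.5 and 2.0, with library-centred clustering and in clusters of both libraries. Those alternatives were thus no further check on the values of these classes. The count of 3 members past 2-fold in fibroblast-like cells was 3 under each of the 11. The count for the fibroblast-like against epithelial comparison, 2, was 2 or 3. The count of 1 in all epithelial cells became 2 with the mean over cells, with a total without keratin, mitochondrial, ribosomal protein and haemoglobin genes, relative to the median gene, and in clusters with at least 20 cells of each library, 3 with 1 CPM added and 0 with 20 CPM added. With 20 CPM added Tgfb3 was at -0.97. In the clusters of both libraries Tgfb2 joined it at -1.26, and Ccn1 and Smad7 were at 0.50 each. Those epithelial clusters held 315 control and 274 induced cells, and none was basal epidermal-like or spinous-like. The sign turned in the other 2: Ccn1 in hair matrix-like cells was -0.040 with doublets kept, and Tgfb3 in outer root sheath-like cells was 0.27 in clusters of both libraries, which of its 5 clusters kept E23 alone; the cause was not tested. Tgfbi in spinous-like cells was -0.73 at resolution 0.5, and Smad7 in dermal papilla-like cells 0.0083 with doublets kept. Basal epidermal-like, spinous-like and upper follicle-like classes gave no value under 1 alternative each.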
